A study of Homo sapiens with 14 samples.

Results

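The subject is the response of LNCaP cells to cycloheximide (CHX) given alone, measured against control cells on 4 of the 14 2-colour arrays of the study. The 4 arrays were chosen by their titles, which pair CHX-treated RNA without R1881 with control RNA. They hold 2 culture experiments, each hybridised with CHX RNA in Cy3 and again with CHX RNA in Cy5. LNCaP is an androgen-responsive line from a human prostate cancer metastasis, so every value comes from 1 cell line. Per the labels, all cells, controls included, grew for 36 h before 48 h in steroid-free medium. The CHX group then received 25 µg/ml CHX for 24 h. The group used for comparison received 1 nM R1881, a synthetic androgen, for 24 h, and a further group received 1 nM R1881 and 25 µg/ml CHX together for 24 h, 4 arrays each against the same kind of control. The control is labelled non-stimulated, and whether it received a vehicle is not stated.

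Cycloheximide binds the large ribosomal subunit and blocks the movement of the ribosome along messenger RNA, so that proteins with a short life are lost and not replaced. Its best known effect on RNA is superinduction, in which transcripts of early response genes accumulate because labile repressors and decay factors are missing and because the decay of many messengers is tied to their translation. With steroid receptors the drug is used to tell genes that the receptor reaches directly from genes that need a newly made protein.

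Each value is a log2 ratio of CHX over control, so 1 means a doubling, and array values are given for experiment 1 and then experiment 2, with CHX RNA in Cy3 first and in Cy5 second. The deposited values were multiplied by −1 because the files do not name the numerator and the rule asked for FOS and JUN above 0. The direction of every change is therefore likely and not certain, and the sign of FOS and JUN is not a result. No source states the logarithm base, which was taken as 2. Means are over n = 2 experiments after averaging the dye orientations, the number after ± is the SD between the experiments, and a gene was said to rise or fall at a limma adjusted p under 0.05. The arrays give ratios and no levels, so the signal over background is unknown, the number of arrays limits the precision, and the identity of the cells could not be checked against the level of prostate markers. Equal amounts of RNA were amplified for every array, so a fall is relative to the other transcripts, and fewer cells of a kind and less RNA per cell cannot be told apart.

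Of 14471 named genes, 5513 differed between CHX and control, which is 38.1% of those tested. These were 2980 genes that rose (20.6%) and 2533 that fell (17.5%). The change was at least 2-fold for 784 rises and 511 falls, at least 4-fold for 105 and 61, and at least 8-fold for 18 and 11. Without experiment 1 the rises numbered 2246 and the falls 1449. Under quantile normalization the rises numbered 1972 and the falls 1450. That setting gave all 14 arrays of the study 1 distribution. The SD of log ratios across probes was 0.57 to 0.62 on the CHX arrays and 0.18 to 0.25 on those of R1881 alone. The setting therefore narrows CHX changes by design, and a call lost under it does not show that a gene or list did not change. Among the 5513 called genes 98.3% had the same sign on all 4 arrays, against 55.0% of all genes. The median SD between experiments was 0.10 over all genes and 0.13 over called genes, and the 4 arrays correlated across genes with Pearson's r between 0.801 and 0.913. Genes are not independent replicates, and the agreement is given as a description.

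**Figure D1:**
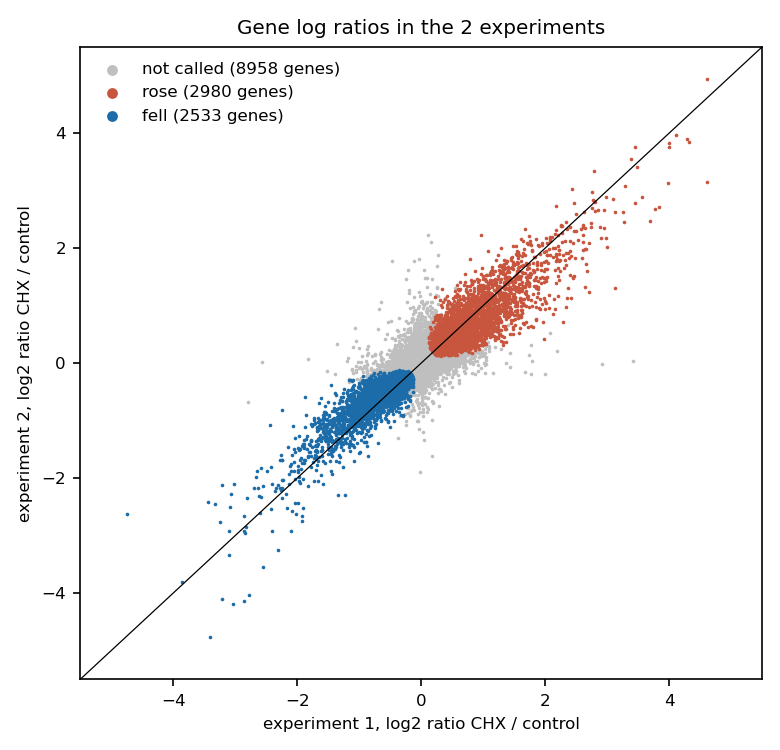
Each point is a gene, with the log2 ratio of CHX over control in experiment 1 on the x axis and in experiment 2 on the y axis, each the mean of both dye orientations. Colours mark the 2980 genes that rose, the 2533 that fell and the 8958 that were not called, and the line marks equal values.

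The largest rises and falls included genes of the actin cytoskeleton, metal binding, signalling, ribosomes and redox defence, and others outside these groups. ACTA2, smooth muscle actin, had log2 ratios of 4.52, 4.71, 4.92 and 4.96, a 27.5-fold rise and the highest of all genes (adjusted p = 4.01e-05). PXDC1 had 4.35, 4.23, 4.12 and 3.69, and SERTAD4 had 4.13, 4.08, 4.34 and 3.59. All 3 genes lay above 3.5 on every array. At the other end RPS2, a protein of the small ribosomal subunit, had −3.23, −3.60, −4.43 and −5.12, a 17.1-fold fall (adjusted p = 0.00102). RLN1, a relaxin hormone gene, had −3.86, −3.87, −3.77 and −3.84, a 14.3-fold fall (adjusted p = 0.000114). The arrays of RLN1 lay close together, while those of RPS2 were lower in experiment 2 than in experiment 1 in either orientation.

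**Figure D2:**
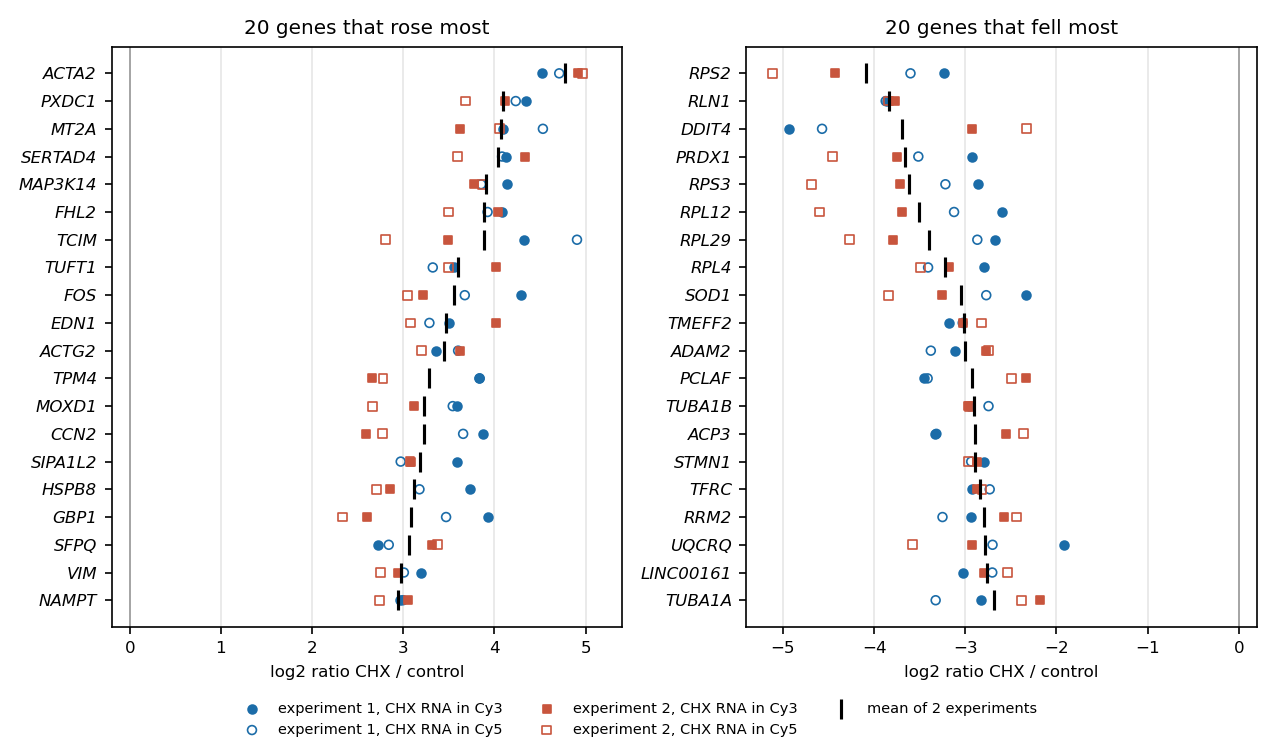
The genes with the largest changes, 20 in each direction, with the log2 ratio of CHX over control on the x axis. Filled and open symbols are the arrays with CHX RNA in Cy3 and in Cy5, circles are experiment 1, squares are experiment 2 and the bar is the mean of the 2 experiments. All points lie on the side of 0 of their gene's mean, and the experiments stand farthest apart for DDIT4.

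For 12 pairs of a gene and an element the promoter was searched, and 4 pairs had a match, of which 2 are printed. No match was found for the kappa B site in MAP3K14, the endoplasmic reticulum stress element (CCAAT and CCACG 9 bases apart) in MANF, the E-box CACGTG in CRY1, the sterol response element TCACNCCAC in FADS1, the TATA box TATAAA in RLN1, the CArG box in ACTA2 and FOS, and the cyclic AMP response element TGACGTCA in FOS, which says only that these letters are not in those windows. Metal response elements, whose core is TGCACNC or TGCGCNC, bind the zinc-sensing factor MTF1 and stand in metallothionein promoters. MT2A, the metallothionein that rose most, holds 8 matches on either strand between 250 bases before and 50 after its start, in chr16:56608334-56608633 on the + strand. The matches are in capitals in the line for MT2A, and 29.4% of the 27305 promoters of the table hold at least 1. Over genes that rose at least 4-fold the share was 31.6%, against 33.7% of genes that were not called. RRM2, a subunit of ribonucleotide reductase and the largest fall among genes of DNA replication with an entry, holds 3 matches to CCAAT, the core bound by the factor NF-Y, in chr2:10122489-10122788 on the + strand. They are in capitals in the line for RRM2, and 35.7% of promoters hold at least 1 on either strand. Sequences are from RefSeq on GRCh38.p14.
MT2A promoter: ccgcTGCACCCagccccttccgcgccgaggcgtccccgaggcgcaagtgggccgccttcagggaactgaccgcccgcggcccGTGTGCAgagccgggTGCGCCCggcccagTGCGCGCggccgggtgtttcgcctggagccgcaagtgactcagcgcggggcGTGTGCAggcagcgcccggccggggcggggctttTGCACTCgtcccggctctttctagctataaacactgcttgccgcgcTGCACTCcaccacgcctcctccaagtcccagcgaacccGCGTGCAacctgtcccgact
RRM2 promoter: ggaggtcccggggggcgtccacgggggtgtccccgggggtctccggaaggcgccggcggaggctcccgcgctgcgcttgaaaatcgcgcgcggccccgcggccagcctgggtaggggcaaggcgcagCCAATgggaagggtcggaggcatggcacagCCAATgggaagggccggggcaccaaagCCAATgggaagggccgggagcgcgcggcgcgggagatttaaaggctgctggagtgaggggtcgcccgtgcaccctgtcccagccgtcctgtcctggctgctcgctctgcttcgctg

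The CArG box is the element bound by serum response factor, SRF, and 1.29% of the promoters of the table held a match. It was searched by its 10-letter consensus on both strands. Among the 79 genes with a promoter entry that rose at least 4-fold, 6 held a match (7.59%), against 1.27% of 7036 genes that were not called and 1 of 53 that fell at least 4-fold. The share in rising genes is a description chosen after the values were seen and was not tested. The 6 genes were FHL2, ACTG2, TPM4, GBP1, SRF and FLNA, and the windows of 50 bases around their matches are shown with the match in capitals, since 5 of the 6 are members of the actin and SRF list described next. ACTG2 and SRF hold 2 matches each, and the windows of either gene overlap. The windows lie in chr2:105438585-105438634 on the − strand for FHL2, in chr2:73892878-73892927 and chr2:73892915-73892964 on the + strand for ACTG2, and in chr19:16067345-16067394 on the + strand for TPM4. Those of the other genes are chr1:89065345-89065394 on the − strand for GBP1, chr6:43171219-43171268 and chr6:43171239-43171288 on the + strand for SRF, and chrX:154374699-154374748 on the − strand for FLNA. All are read 5′ to 3′ along the gene.
FHL2: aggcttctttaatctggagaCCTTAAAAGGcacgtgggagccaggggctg
ACTG2, upstream match: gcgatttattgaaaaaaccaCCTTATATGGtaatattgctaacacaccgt
ACTG2, downstream match: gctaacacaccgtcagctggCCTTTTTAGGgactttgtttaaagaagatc
TPM4: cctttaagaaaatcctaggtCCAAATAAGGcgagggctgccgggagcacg
GBP1: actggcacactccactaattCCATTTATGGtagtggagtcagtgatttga
SRF, upstream match: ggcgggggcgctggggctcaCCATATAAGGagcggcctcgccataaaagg
SRF, downstream match: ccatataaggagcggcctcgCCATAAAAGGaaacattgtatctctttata
FLNA: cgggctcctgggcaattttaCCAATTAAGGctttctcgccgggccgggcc

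Actin filaments are built and bound by a large set of proteins whose genes are classical targets of SRF and its actin-sensing coactivators. Of 46 measured genes of the actin cytoskeleton and SRF targets, 35 rose and 1 fell, with a median log2 ratio of 1.01 against 0.00 over all genes. The list held the highest share of rising members of all 47 lists counted, 76.1% against the background of 20.6%. The lists were written with earlier results of these data known, so this rank supports nothing further. FHL2, a LIM-domain coactivator that is itself an SRF target, had 4.08, 3.92, 4.04 and 3.49 (14.8-fold, adjusted p = 4.01e-05). ACTG2, the smooth muscle gamma actin, had 3.36, 3.60, 3.62 and 3.20 (10.9-fold), and TPM4, a tropomyosin that coats the filament, had 3.83, 3.84, 2.66 and 2.78 (9.70-fold). TPM4 was higher in experiment 1 on either array, while the experiments overlapped for ACTG2. Actin genes are close copies, so the probes of ACTA2 and ACTG2 may share signal. The list median lay between 0.80 and 1.23 on the 4 arrays, and 29 of the members rose without experiment 1 and 32 without experiment 2.

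Further members of the list bind filaments, adhesion sites or myosin. VCL, vinculin, which ties integrin adhesions to actin, had 2.73, 2.83, 2.85 and 2.77 (6.95-fold, adjusted p = 6.40e-05). MYL12A, a regulatory light chain of myosin, had 3.06, 2.82, 2.42 and 2.89 (6.96-fold). WDR1, which helps cofilin to take filaments apart, rose by 2.49 ± 0.17, and CNN2, a calponin, by 1.84 ± 0.00. All of these genes were above 1.5 on every array. SRF itself rose by 2.40 ± 0.14, and FLNA, filamin A, a filament cross-linker, had 3.25, 3.01, 1.52 and 1.09. Both names were picked with their values known, and FLNA was not called without experiment 1 (1.31, adjusted p = 0.104). TMSB10, a thymosin that binds actin monomers, was the member that fell, with −0.85, −1.02, −0.49 and −0.79 (adjusted p = 0.00198).

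**Figure D3:**
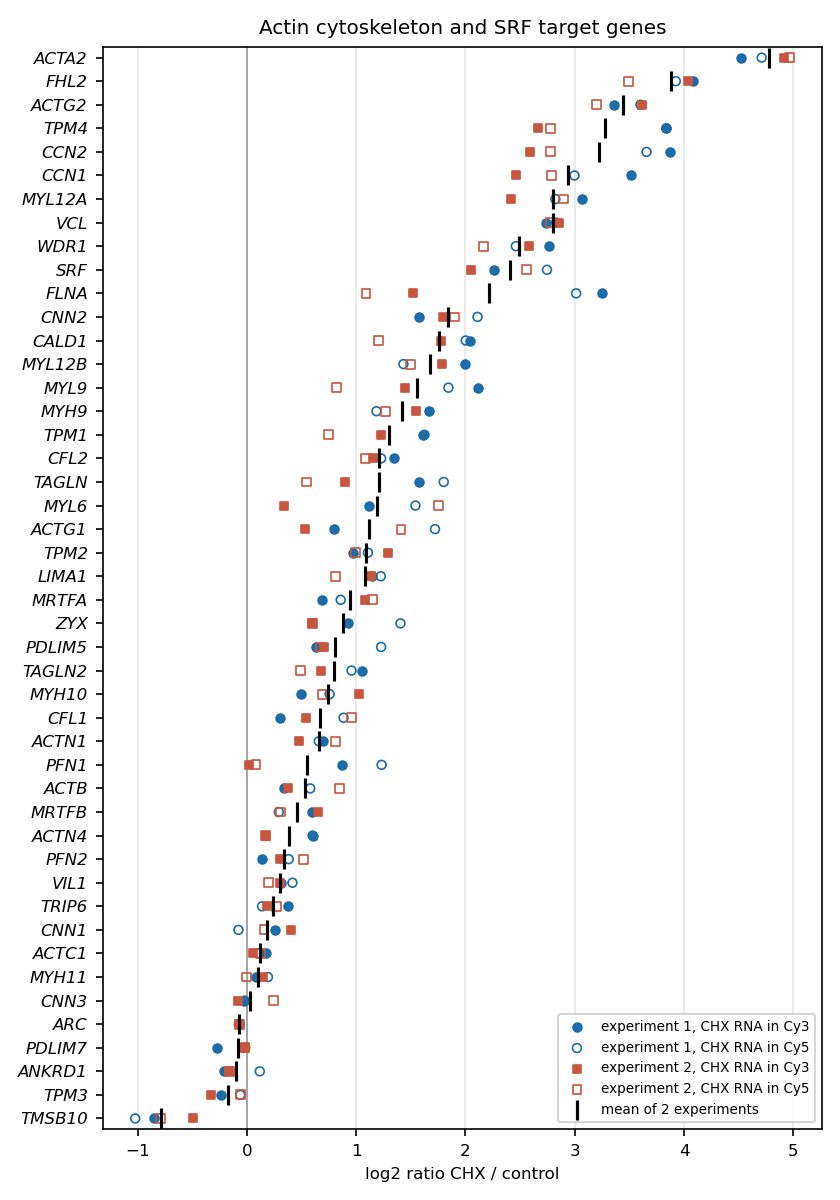
The 46 measured genes of the actin cytoskeleton and SRF targets, ordered by their mean log2 ratio of CHX over control on the x axis. Filled and open symbols are the arrays with CHX RNA in Cy3 and in Cy5, circles are experiment 1, squares are experiment 2 and the bar is the mean of the 2 experiments. The values run from 4.78 for ACTA2 down to −0.79 for TMSB10, and 41 of the 46 means lie above 0.

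Transcripts of CCN1, CCN2 and CCN3, of a family of secreted proteins that bind the matrix and integrins, rose as well. CCN2, connective tissue growth factor, had 3.88, 3.66, 2.59 and 2.78 (9.36-fold, adjusted p = 0.000594), and CCN1 lay between 2.46 and 3.51 on the arrays (7.67-fold). CCN3 had 1.95, 2.31, 2.60 and 1.41 (4.20-fold). The list of CCN proteins and matrix regulators as a whole had 7 rises (26.9%, against 20.6% of all genes) and 2 falls (7.69%, against 17.5%) among 26 genes. Its median was 0.08. MMP10, a matrix metalloprotease, rose by 1.98 ± 0.46. FN1, fibronectin, had −0.51 ± 0.09 and fell, with 1 probe at −0.86 and another, not called, at −0.16. TIMP2, a metalloprotease inhibitor, had −0.69 ± 0.25 and fell, though it was not called under quantile normalization (−0.47, adjusted p = 0.121). VIM, vimentin, the filament protein of mesenchymal cells, had 3.19, 3.01, 2.95 and 2.75 (7.86-fold, adjusted p = 6.40e-05). The list of keratins and vimentin that holds it had 3 rises (12%) and 4 falls (16%) among 25 genes, both below the shares of all genes. Its median was −0.08, with LMNB1, a nuclear lamin, at −1.42 and KRT20 at −1.04. Under quantile normalization the list had 2 rises and 2 falls. Among 27 measured markers of basal, stromal and neuroendocrine cells, 1 rose (3.70%) and 6 fell (22.2%, against 17.5% of all genes), with a median of −0.04. The falls were 2 under quantile normalization and 3 without either experiment.

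AP-1 dimers bind many growth-regulated promoters. In this family 8 of 14 genes rose (57.1%, against 20.6% of all genes) and 1 fell (7.14%, against 17.5%). Without FOS and JUN, whose sign was set, these were 6 and 1 of 12. FOS had 4.29, 3.67, 3.22 and 3.05 and JUN had 2.39, 2.62, 2.40 and 2.80, the values that set the sign. ATF3, a stress-induced member, had 3.13, 3.12, 2.60 and 2.65 (7.33-fold, adjusted p = 0.000135). The family was not uniform. MAFG, a partner of stress-response factors, rose by 0.93 ± 0.23, FOSL1 fell by 0.65 ± 0.04 (adjusted p = 0.000836), and FOSB had −0.15, −0.28, −0.04 and −0.15 (adjusted p = 0.435). Of the Kruppel-like and early growth response factors 7 of 26 rose (26.9%, against 20.6% of all genes) and 3 fell, and the falls were 1 under quantile normalization and 0 without experiment 1. KLF6 rose by 2.25 ± 0.10, KLF10, which TGF-beta induces, by 2.09 ± 0.30, KLF5 by 2.02 ± 0.23 and EGR1 by 1.12 ± 0.10.

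The feedback inhibitors that early signals induce rose more often than they fell. Of 21 MAP kinase phosphatases and feedback inhibitors 12 rose (57.1%, against 20.6% of all genes) and 1 fell (4.76%, against 17.5%). Their median was 0.56. DUSP8, a phosphatase of stress kinases, had 2.19, 2.04, 2.28 and 2.13 (4.46-fold, adjusted p = 7.78e-05), and DUSP1 had 2.72, 2.59, 2.17 and 1.80 (5.00-fold). ERRFI1, an inhibitor of the EGF receptor, rose by 1.62 ± 0.07, SPRY2 by 1.66 ± 0.38 and SOCS2, an inhibitor of cytokine signalling, by 1.26 ± 0.14. CISH, of the same family as SOCS2, had −0.57, −0.72, −0.43 and −0.33 and fell, but not without experiment 1 (−0.38, adjusted p = 0.0600). Among ligands, HBEGF, which activates the EGF receptor, rose by 2.65 ± 0.43 and EDN1, endothelin 1, by 3.47 ± 0.11. Chemokines and cytokines as a list had 6 rises (16.7%, below the 20.6% of all genes) and 1 fall among 36 genes and a median of 0.05, and 3 rises and 0 falls without experiment 1.

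Of 23 NF-kB subunits, inhibitors and kinases 10 rose (43.5%, against 20.6% of all genes) and 1 fell (4.35%, against 17.5%). MAP3K14, the kinase of the non-canonical branch, had 4.13, 3.85, 3.77 and 3.87 (15.02-fold, adjusted p = 9.55e-05), and REL rose by 0.77 ± 0.11. NFKB2, whose product that branch processes, averaged 0.67 ± 0.05 over 2 probes that disagreed, at 1.34 and 0.0007. TNFAIP2, a target gene, fell by 0.48 ± 0.06.

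GADD45, BTG and other growth arrest genes had 11 rises (55%, against 20.6% of all genes) and 3 falls (15%, against 17.5%) among 20. The list median was 0.77, and under quantile normalization the list had 9 rises and 2 falls. GADD45B had 2.29, 2.13, 2.17 and 1.91 (4.37-fold, adjusted p = 0.000113), BTG3 rose by 1.05 ± 0.06 and TRIB1, a pseudokinase, by 1.05 ± 0.06. DDIT4, an inhibitor of mTORC1 signalling, moved the other way, with −4.93, −4.57, −2.93 and −2.33 (adjusted p = 0.00521), and its arrays of experiment 1 lay far below those of experiment 2. Of the cyclin-dependent kinase inhibitors CDKN1B, p27, had 1.17, 1.23, 1.06 and 1.15 (2.23-fold), and CDKN2B rose by 0.73 ± 0.08. CDKN1A, p21, averaged 0.85 ± 0.16 over 2 probes that disagreed, at 1.71 and −0.01.

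The list of death receptors and caspases and the BCL2 family each held rises and falls. FAS and TNFRSF10B, which are death receptors, rose by 2.53 ± 0.51 and 1.34 ± 0.00. TNFRSF21 had 2.04, 1.99, 1.80 and 1.73 (3.71-fold, adjusted p = 0.000171). Of 24 death receptor and caspase genes 8 rose (33.3%, against 20.6% of all genes) and 5 fell (20.8%, against 17.5%). These were 5 and 2 under quantile normalization and 5 and 3 without experiment 1. BIRC5, survivin, had −1.11, −1.17, −0.86 and −0.92, and CASP4 fell by 1.03 ± 0.18. Among 20 BCL2 family genes 7 rose (35%) and 4 fell (20%), the latter 2 under quantile normalization. BCL2A1, an inhibitor of apoptosis, rose by 1.26 ± 0.05 and BBC3, which promotes it, by 0.87 ± 0.16, and BID, another promoter of apoptosis, had −1.36, −1.59, −1.22 and −1.07 (2.48-fold lower).

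Metallothioneins are small cysteine-rich proteins that bind zinc and copper, and 4 of the 8 measured rose. MT2A had 4.10, 4.53, 3.62 and 4.06 (16.9-fold, adjusted p = 6.40e-05), MT1G had 2.66, 2.62, 2.78 and 1.94 (5.66-fold), and MT1F had 2.14, 1.97, 1.13 and 0.80 (2.84-fold). MT1F had 0.96 without experiment 1, and MT1A, at 0.85 ± 0.30, was not called without it (0.63, adjusted p = 0.0559). MT1B, MT1E, MT1M and MT4 had means between −0.11 and 0.10 and were not called. Metallothionein genes are near-identical copies, so signal may be shared between their probes. The transporters on the list did not move together. SLC30A1, which exports zinc from the cell, had 1.40, 1.45, 1.11 and 0.86. SLC39A10, which imports it, had −1.68, −1.74, −1.51 and −1.68 (3.14-fold lower, adjusted p = 0.000204). SLC30A10 was at −0.09 ± 0.04 and was not called (adjusted p = 0.295). MTF1, the sensor itself, had 0.53, 0.64, 0.01 and 0.18 and was not called (adjusted p = 0.182). The limma fit with the experiment number as a block called it (0.34, adjusted p = 0.0435).

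Of 18 SR splicing factors and CLK kinases 12 rose (66.7%, against 20.6% of all genes) and 1 fell (5.56%, against 17.5%). Their median was 0.60. CLK1, which phosphorylates SR proteins, had 2.70, 2.53, 2.03 and 1.89 (4.88-fold, adjusted p = 0.000411), and CLK4 had 1.61, 1.57, 1.55 and 1.42 (2.91-fold). SRSF11 rose by 0.99 ± 0.12 and SRSF1 by 0.94 ± 0.23, while SRSF5 had −0.47, −0.43, −0.82 and −0.65 and fell. SFPQ, a splicing factor of paraspeckles, had 2.72, 2.84, 3.31 and 3.38 (8.36-fold). Heterogeneous nuclear ribonucleoproteins, another family of RNA-binding proteins, had 7 rises (38.9%) and 4 falls (22.2%) among 18. Among the falls were HNRNPA2B1 at −0.96, −1.08, −0.90 and −1.03 and HNRNPA1 at −0.77 ± 0.00. The balance was not stable, with 3 rises and 3 falls under quantile normalization and 3 rises and 5 falls without experiment 2.

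The circadian clock is a loop of transcription factors and short-lived repressors. Of 19 clock genes 10 rose (52.6%, against 20.6% of all genes) and 1 fell (5.26%, against 17.5%). CRY1, a repressor, had 2.72, 2.49, 2.53 and 2.29 (5.70-fold, adjusted p = 6.40e-05), CRY2 had 1.52, 1.41, 1.15 and 1.02, and NFIL3 had 1.82, 1.66, 2.19 and 2.23. BMAL1, an activator, rose by 1.08 ± 0.21 and PER3 by 0.95 ± 0.20. PER2 averaged 1.39 over 2 probes that disagreed, at 2.92 and −0.14. BHLHE40, which represses the activators, fell by 0.43 ± 0.02, a call lost under quantile normalization (−0.31, adjusted p = 0.118).

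Nuclear receptor coregulators, which connect steroid receptors to chromatin, had 10 rises among 23 (43.5%, against 20.6% of all genes). The other 13 were not called. CREBBP, a histone acetyltransferase, had 2.08, 1.97, 1.93 and 1.84 (3.88-fold, adjusted p = 7.95e-05). NCOA6 rose by 1.25 ± 0.17 and NCOA4, also a receptor for ferritin breakdown, by 0.95 ± 0.04. Of the ubiquitin ligases and deubiquitinases of short-lived regulators 11 of 33 rose (33.3%) and 1 fell (3.03%, against 17.5% of all genes). FBXW7, which marks MYC and cyclin E for breakdown, had 1.5 on the Cy3 array of experiment 2 and 1.64 to 1.65 on the others (3.05-fold, adjusted p = 0.000104), NEDD4L rose by 1.74 ± 0.25, and UBB, a ubiquitin gene, had −2.29, −2.52, −2.16 and −2.06 (4.78-fold lower). Proteasome subunits had 15 rises (35.7%) and 6 falls (14.3%, below the 17.5% of all genes) among 42. The falls were 2 under quantile normalization. PSMD6 was at 1.45 ± 0.14, PSMD9 at 1.35 ± 0.13 and the interferon-inducible PSMB10 at −0.84 ± 0.13.

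MAX pairs with activators or repressors. In the MYC and MAX network 2 of 12 genes rose (16.7%, below the 20.6% of all genes) and 4 fell (33.3%, against 17.5%). There was 1 rise under quantile normalization. The falls were led by repressors that pair with MAX. MNT had −1.72, −1.83, −1.51 and −1.71 (3.23-fold lower, adjusted p = 0.000225), MXI1 had −0.52, −1.74, −0.63 and −1.19, and MXD4 had −0.84, −1.49, −1.01 and −0.71. MXI1 was lower with CHX RNA in Cy5 in either experiment. MLX rose by 0.68 ± 0.24 and MAX by 0.36 ± 0.18, the latter not called under quantile normalization (0.24, adjusted p = 0.113). MYC itself had −0.58, −0.68, −0.29 and −0.02 and was not called (adjusted p = 0.149), although the fit to single arrays with a random block called it (−0.39, adjusted p = 0.0339).

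Of 32 genes of glucose uptake and glycolysis 20 fell (62.5%, against 17.5% of all genes) and 2 rose (6.25%, against 20.6%). Their median was −0.54. SLC16A1, a lactate transporter, had −1.87, −1.91, −1.72 and −1.78 (3.53-fold lower, adjusted p = 0.000242). ALDOC, an aldolase, had −1.69, −1.62, −1.61 and −1.64, and LDHA, lactate dehydrogenase, had −1.55, −1.23, −1.68 and −1.31. GAPDH, an enzyme often taken as a reference gene, was on 272 probes, and all 272 lay below 0, with a median of −0.63 and a range of −3.45 to −0.13. TXNIP, which restrains glucose uptake, had 2.24, 2.42, 0.75 and 1.22 and rose, a call lost without experiment 1 (0.98, adjusted p = 0.0588). The count of falls depended on scaling and was 7 under quantile normalization, with 1 rise. Falls over all genes went from 2533 to 1450 under that setting.

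Of 15 genes of serine, glycine and asparagine synthesis 11 fell (73.3%, against 17.5% of all genes) and 3 rose (20%, against 20.6%). The median was −0.73, and the share that fell was the highest of the 47 lists. The lists were written with earlier results of these data known, so this rank supports nothing further. SHMT2, which turns serine into glycine in mitochondria, had −1.63, −1.60, −1.48 and −1.57 (2.97-fold lower, adjusted p = 0.000282), MTHFD2 had −1.68, −1.91, −1.56 and −1.28, and PYCR1, of proline synthesis, had −1.49, −1.36, −1.49 and −1.51. GOT1, an aspartate transaminase, rose by 0.63 ± 0.00. Of 13 polyamine genes 6 rose (46.15%, against 20.6% of all genes) and 2 fell (15.4%, against 17.5%). SAT1, which acetylates polyamines for export, lay between 1.89 and 2.09 on the arrays (3.91-fold, adjusted p = 7.44e-05), and ODC1 and AMD1, of polyamine synthesis, rose by 1.45 ± 0.18 and 1.54 ± 0.24. Under quantile normalization 7 genes of the serine list fell and 3 of the polyamine list rose.

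Antioxidant enzymes had 14 falls (56%, against 17.5% of all genes) and 3 rises (12%, against 20.6%) among 25, with a median of −0.35. PRDX1, a peroxiredoxin, had −2.93, −3.52, −3.75 and −4.46 (12.7-fold lower, adjusted p = 0.000429), PRDX5 had −2.10, −2.40, −2.16 and −2.52, and NQO1, a quinone reductase, lay between −2.21 and −1.42 on the arrays. Of the members that rose, HMOX1, heme oxygenase, had 1.60, 1.63, 1.69 and 1.68 (3.14-fold). Oxidative phosphorylation subunits fell in 28 (38.4%) and rose in 14 (19.2%, near the 20.6% of all genes) of 73 cases. Their median was −0.09, and 6 rose under quantile normalization. UQCRQ, of complex III, had −1.92, −2.70, −2.93 and −3.58 (6.88-fold lower). COX6C had −2.11, −2.42, −3.03 and −1.39, COX6B1 had −2.01, −2.23, −2.69 and −0.90, and COX6A1 had −2.34, −2.52, −2.98 and −0.63. For these 3 subunits of cytochrome oxidase the array of experiment 2 with CHX RNA in Cy5 lay above the other 3 arrays, and COX6A1 was not called from the arrays with CHX RNA in Cy5 (−1.58, adjusted p = 0.0571).

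**Figure D4:**
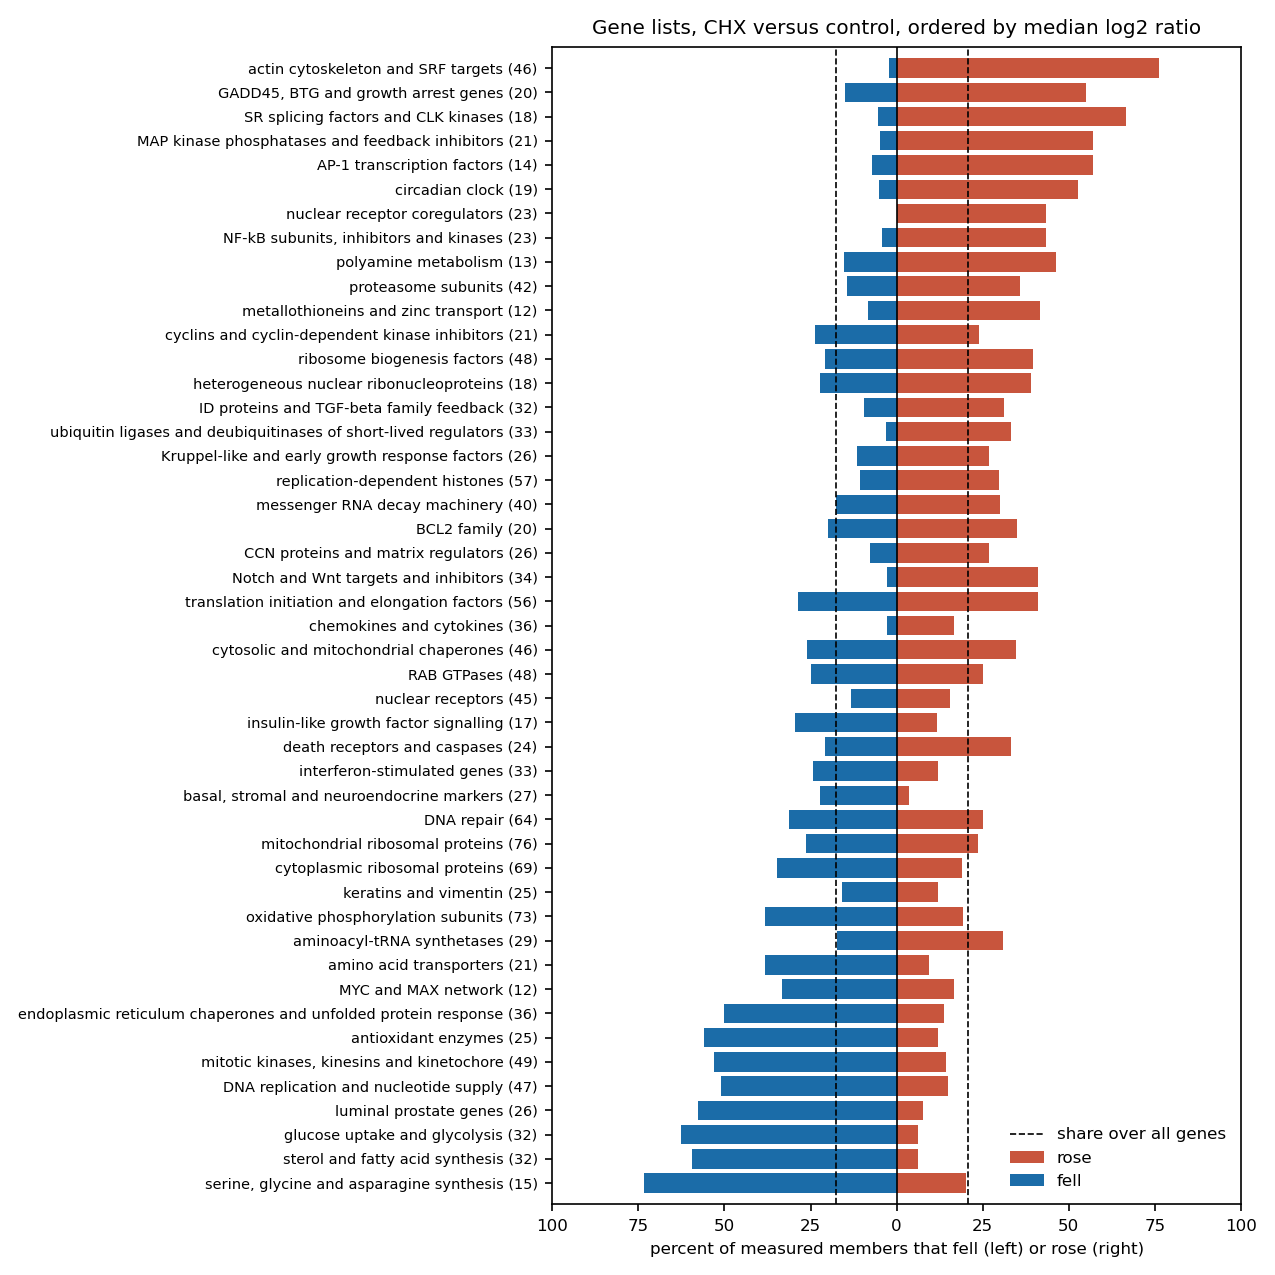
Share of the measured members of each of the 47 lists that rose, to the right, or fell, to the left, in percent of measured members, with the number measured in parentheses. Dashed lines mark the shares over all 14471 genes, 20.6% for rises and 17.5% for falls. The lists are ordered by median log2 ratio, from actin cytoskeleton and SRF targets at 1.01 to serine, glycine and asparagine synthesis at −0.73.

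The parts of the translation machinery did not move together. Translation initiation and elongation factors rose in 23 (41.1%, against 20.6% of all genes) and fell in 16 (28.6%, against 17.5%) of 56 cases. EIF3J had 1.94, 1.56, 1.54 and 1.59 (3.15-fold, adjusted p = 0.000251) and EIF6, which keeps ribosomal subunits apart, had 1.32, 1.56, 1.40 and 1.25. EIF3L instead had −1.38, −1.78, −1.49 and −1.91 (3.12-fold lower, adjusted p = 0.000114), the average of 2 probes at −0.51 and −2.77. Ribosome biogenesis factors rose in 19 (39.6%) and fell in 10 (20.8%) of 48 cases. RRN3, which starts ribosomal RNA synthesis, was at 1.71 ± 0.31, GNL2 at 1.51 ± 0.23 and RRP12 at −1.13 ± 0.06. Cytoplasmic ribosomal protein genes fell in 24 (34.8%, against 17.5% of all genes) and rose in 13 (18.8%, against 20.6%) of 69 cases. Their spread was uneven: 6 lay at or below −2 and 46 lay within 0.5 of 0. Their list median was −0.24 and −0.31 on the arrays with CHX RNA in Cy3 and 0.14 and 0.10 on those with CHX RNA in Cy5, so the direction of the median followed the dye. Of the 69, 43 in experiment 1 and 49 in experiment 2 were higher with CHX RNA in Cy5, against 43.9% and 50.2% of all genes. Their 13 rises, RPL37A at 0.65 ± 0.10 and RPS26 at 0.65 ± 0.03 among them, were 4 from the Cy3 arrays alone. Whether probes of ribosomal protein genes share signal was not checked. Mitochondrial ribosomal proteins rose in 18 (23.7%, against 20.6% of all genes) and fell in 20 (26.3%, against 17.5%) of 76 cases. MRPL41 was at −2.34 ± 0.25 and MRPS35 at 0.94 ± 0.04. Under quantile normalization there were 15 rises and 9 falls of translation factors, 10 and 5 of biogenesis factors, and 10 and 13 of mitochondrial ribosomal proteins.

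Protein folding genes are given by compartment. In the cytosol and mitochondria 16 of 46 chaperone genes rose (34.8%, against 20.6% of all genes) and 12 fell (26.1%, against 17.5%). HSPB8, a small heat shock protein that serves filament quality control, had 3.73, 3.18, 2.85 and 2.70 (8.68-fold, adjusted p = 0.000251), and DNAJB4 had 3.07, 2.90, 2.22 and 2.13. HSPA8, the constitutive HSP70, had −2.32, −2.04, −2.31 and −2.23 (4.69-fold lower, adjusted p = 9.74e-05). In the endoplasmic reticulum 18 of 36 genes fell (50%) and 5 rose (13.9%). SEL1L, which helps to export misfolded proteins, had −1.30, −1.35, −1.24 and −1.21, and EIF2AK3, the stress kinase PERK, rose by 0.77 ± 0.03. Under quantile normalization 8 cytosolic and mitochondrial chaperone genes rose and 11 genes of the endoplasmic reticulum list fell, and without experiment 1 there were 7 falls of the former and 2 rises of the latter.

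Of 49 mitotic kinases, kinesins and kinetochore genes 26 fell (53.1%, against 17.5% of all genes) and 7 rose (14.3%, against 20.6%). Their median was −0.36. Of 47 genes of DNA replication and nucleotide supply 24 fell (51.1%) and 7 rose (14.9%), with a median of −0.48. RRM2, whose promoter is printed above, had −2.94, −3.25, −2.57 and −2.44 (6.96-fold lower, adjusted p = 0.000189). SPC24, of the outer kinetochore, had −2.43, −2.25, −2.16 and −2.20 (4.78-fold lower), and ZWINT, of the same structure, had −2.14, −2.36, −2.09 and −2.27. PCLAF, a partner of the replication clamp, had −3.46, −3.41, −2.33 and −2.49. Against the trend PLK2, a stress-induced kinase, had 2.71, 2.51, 2.20 and 2.25 (5.35-fold), KIF23 rose by 1.23 ± 0.13 and ORC4, of the origin recognition complex, by 0.92 ± 0.05. Both counts of falls were 13 under quantile normalization, and 17 each without experiment 1. Rises of mitotic and of replication genes numbered 2 and 3 under quantile normalization and 4 each without experiment 1. DNA repair genes fell in 20 (31.2%, against 17.5% of all genes) and rose in 16 (25.0%, against 20.6%) of 64 cases. Under quantile normalization 19 fell and 11 rose. MGMT, which repairs alkylated guanine, had −1.53, −1.67, −1.64 and −1.58, BARD1, the partner of BRCA1, had −1.89, −2.14, −2.59 and −2.66, and XPA, of nucleotide excision repair, had 1.44, 1.35, 1.53 and 1.45.

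Genes of luminal prostate cells fell in 15 (57.7%, against 17.5% of all genes) and rose in 2 (7.69%, against 20.6%) of 26 cases. Their median was −0.52, and under quantile normalization 12 fell and 1 rose. RLN2, the other relaxin gene, had −2.57, −2.65, −2.57 and −2.65 (6.10-fold lower, adjusted p = 6.40e-05), and TMEFF2, a membrane protein of prostate and brain, had −3.18, −3.03, −3.03 and −2.82. STEAP2, a metal reductase of prostate cells, had −1.39 ± 0.18. RLN1 and RLN2 are close copies, so their signal may be shared. KLK4, a kallikrein, had 0.95, 1.63, 1.97 and 2.02 and rose, a call lost without experiment 2 (1.29, adjusted p = 0.119). Insulin-like growth factor signalling fell in 5 (29.4%, against 17.5% of all genes) and rose in 2 (11.8%, against 20.6%) of 17 cases. Under quantile normalization 3 fell and 2 rose. GRB10, an adaptor that dampens the insulin receptor, was at −1.56 ± 0.17 and IGF2R at −1.004 ± 0.11.

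In 7 called genes the experiments differed by an SD over 1, and these genes were chosen by that spread. They were DDIT4, FLNA, ARHGAP29, PSPC1, FGF13, TCIM and LENG9. All 7 changed more in experiment 1. TCIM had 4.32, 4.91, 3.49 and 2.81, FGF13 had 2.91, 2.49, 1.36 and 1.11, and ARHGAP29 had 2.31, 2.27, 0.66 and 0.79. FLNA, FGF13, ARHGAP29, PSPC1 and LENG9 were not called without experiment 1, at 1.31, 1.24, 0.72, 0.42 and −0.81 with adjusted p of 0.104, 0.0912, 0.339, 0.135 and 0.206.

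The classes of response were set beside features that the arrays do not measure. Among 11608 genes with a promoter entry the median length of the gene on the genome was 40.7 kb for genes that rose, 19.98 kb for genes that fell and 27.8 kb for genes that were not called. It was 28.7 kb for rises of at least 4-fold and 9.49 kb for falls of at least 4-fold, the shortest of these classes. The cyclic AMP response element TGACGTCA stood in 4.07% of promoters of genes that rose and 6.33% of those that rose at least 4-fold, against 2.30% of genes not called. CCAAT stood in 40.2% of promoters of genes that fell and 52.8% of those that fell at least 4-fold, against 36.2%. TATAAA stood in 17.7% of promoters of rises of at least 4-fold but in 7.70% of those of all rises, against 10.7%, and CACGTG, the E-box, in 15.2% of those rises and 15.1% of falls of at least 4-fold against 8.44%, while over all rises it stood in 8.99% and over all falls in 11.5%. Of 13 motifs searched on both strands, 6 are given here, chosen after their shares were seen, and none was tested.

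**Figure D5:**
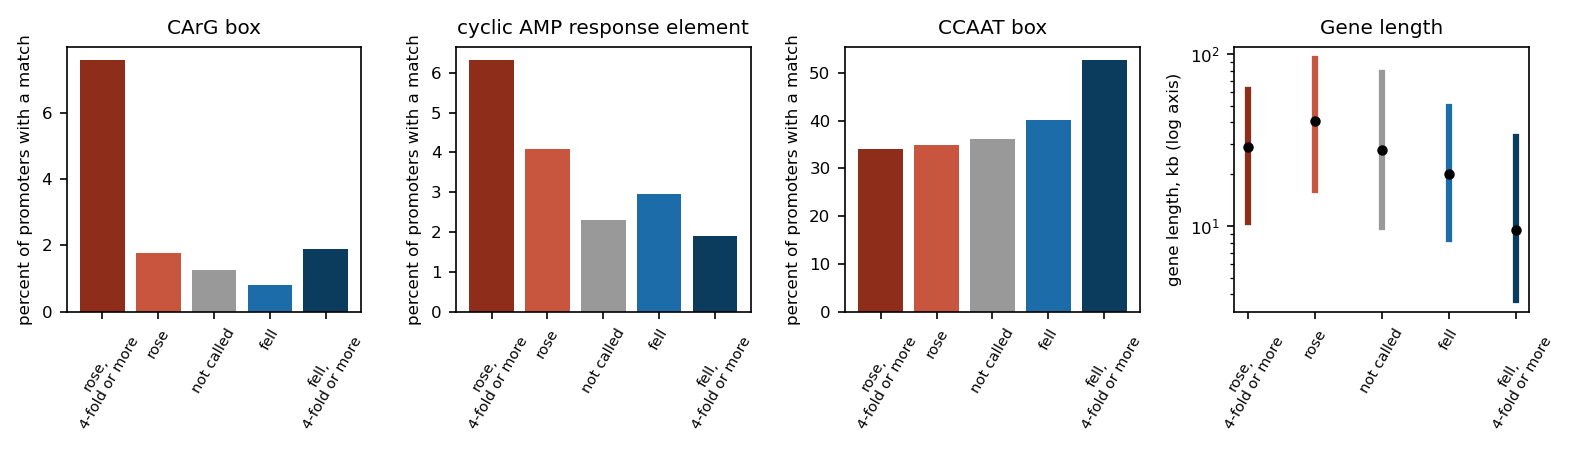
Share of promoters with a match to the CArG box, the cyclic AMP response element and the CCAAT box, in percent, and gene length in kb on a log axis, by class of response to CHX. Bars are shares of genes with a promoter entry (79, 2480, 7036, 2092 and 53 from left to right), and for length the points are medians and the lines run from the lower to the upper quartile. The CArG share is 7.59% in rises of at least 4-fold, and the median length falls to 9.49 kb in falls of at least 4-fold.

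CHX was set against R1881, the androgen, to see which changes differed between the treatments. Both comparisons share the kind of control. The labels do not say whether they share the control RNA, so noise of separate controls may remain in the difference. Of 14471 genes 3613 differed (25.0%), with 2043 higher with CHX (14.1%) and 1570 lower (10.8%). The median absolute log2 ratio was 0.20 with CHX and 0.06 with R1881. Against control limma called 1 gene with R1881 alone and 5513 with CHX alone. For all but that 1 gene, an R1881 value given below is therefore not a called change. The error was pooled over the 3 treatments, and the median SD between experiments was 0.100 with CHX and 0.065 with R1881. With 2 experiments, the count of 1 does not show that R1881 changed few genes. RRM2 had a limma adjusted p of 0.390 with R1881 against control. Mitotic genes were lower with CHX in 31 of 49 cases, with list medians of −0.36 with CHX and 0.33 with R1881. Genes of DNA replication were lower in 25 of 47 cases, with medians of −0.48 and 0.29. RRM2 had −2.80 with CHX and 0.73 with R1881 (limma adjusted p of the difference = 0.000772), and ZWINT had −2.22 and 0.59 (adjusted p = 0.000453). KLK3, prostate-specific antigen, had −1.54 with CHX and 0.98 with R1881 (adjusted p = 0.000445). Luminal prostate genes were lower with CHX than with R1881 in 16 of 26 cases, and actin and SRF target genes were higher in 31 of 46 cases.

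CHX alone was also set against CHX with R1881. By limma 0 of 14471 genes differed (0%), while 185 had an unadjusted p under 0.05 against 724 that chance would give. The fit to single arrays with a random block called 2. Some of the 20 largest rises and of the 20 largest falls are given side by side. ACTA2 had 4.78 with CHX alone and 4.66 with R1881 added, MT2A had 4.08 and 3.99, and CCN2 had 3.23 and 3.29. RRM2 had −2.80 and −2.71, and TFRC, the transferrin receptor, had −2.84 and −2.60. RLN1 had −3.83 and −3.15 and KLK3 had −1.54 and −1.25. With 2 experiments a side, a difference that was not called is not shown to be absent, and the largest difference of any gene called with CHX alone was 0.94. The error of this contrast ignores any sharing of controls, and deviations from the group means correlated at 0.564 between these 2 treatments. The error may therefore be too wide. The 2 arrays of CHX plus R1881 against CHX were not used.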

How the data were processed

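2-colour arrays compared treated with control LNCaP RNA, per the labels. The deposited values, 1 per probe and array (27648 probes, 0 missing), are log ratios that were taken as log2, since no source states their base. How the authors analysed the images, corrected background and normalized these log2 ratios is not given in the sources used here. Probes were named through RefSeq accessions (14721), current symbols (1810), older symbols (1077) or the deposited symbol (18). The other 10022 stayed unnamed, and 3858 were renamed from the platform's symbol. Values of several probes were averaged per gene (2054 of 14471 genes).

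All values were multiplied by −1 (FOS and JUN had deposited means of −3.56 and −2.55). The 2 orientations of an experiment use the same RNAs and were averaged. The labels call the experiments biological replicates. The p-values rest on the spread between experiments, pooled per gene over the 3 treatments. The median SD between experiments was 0.100 with CHX, 0.065 with R1881 and 0.094 with CHX plus R1881. The 6 log ratios against control (CHX, R1881 and both) were fitted in R 4.3.3 with limma 3.58.1 (lmFit, eBayes), with 1 term per treatment, 3 residual and 2.57 prior degrees of freedom, and Benjamini-Hochberg adjustment over all genes at 0.05. Treatment differences were tested as contrasts, whose error ignores any sharing of controls. The 2 arrays of CHX plus R1881 against CHX were not used here. Members and lists were chosen with earlier results of these data known, and no set test was run. Genes that could be named were set by rule. They were FOS, JUN and the 20 largest rises and falls with 1 sign on 4 arrays. Each list added up to 6 members in the more frequent direction and up to 2 in the other, with the smallest p. Lists with 12 or fewer measured members added all of them. Not every gene within the rule is named. Names outside the rule are marked. On simulated data with 200 of 14471 genes changed for CHX against control, 77.5% were recovered at 1.5-fold and 97.5% at 2-fold, and false calls were 4.91% and 8.02% of calls. The simulated noise was independent and equal across treatments, and far fewer genes were changed than were called in the data. These rates may therefore not hold for the data. Promoters came from RefSeq on GRCh38.p14 (11608 genes matched, 2863 not). Python 3.11.15, pandas 2.3.3 and matplotlib 3.10.9 made summaries and plots. Alternatives were centring, scaling, quantile normalization, CHX arrays alone, a replicate block, single dye orientations, a random block, leaving out an experiment, leaving out genes with disagreeing probes, and a 1.5-fold limit.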

Additional observations from a re-analysis of the deposited data

How the results depend on the processing

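The count of 5513 genes called for CHX against control (2980 rose, 2533 fell) was 3422 under quantile normalization (1972 rose, 1450 fell) and 2979 with a limit of 1.5-fold (1757 rose, 1222 fell). All 3422 calls under quantile normalization were among the 5513. That setting gave all 14 arrays of the study 1 distribution and so narrows CHX changes. Fitted on the CHX arrays alone, with no spread taken from the other treatments, 3853 genes were called, of which 2168 rose and 1685 fell. Leaving out an experiment gave 3695 to 4671 calls, 2246 to 2590 rises and 1449 to 2081 falls, the lower values without experiment 1; the remaining sample is then assumed to vary like those of the other treatments. The difference between CHX and R1881 was called for 3613 genes, for 2144 under quantile normalization and for 2524 to 3541 without an experiment. The difference between CHX and CHX plus R1881 was called by limma for 0 genes, also without either experiment, and for 2 genes with the RNA pair as a random block. The other counts over all genes stayed within 1.5 times, but those of single lists did not: the larger of a list's counts of rises and falls moved further in 22 of the 47 lists under quantile normalization, 11 without experiment 1, 6 without experiment 2 and 1 with either dye alone.

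Of the named genes, 3 that were not called changed sign. MT1E was at 0.000979 and MT4 at −0.0305 with treated RNA in Cy5. MT1E ran from −0.0573 to 0.0118 and GBP2 from −0.00797 to 1.01 without an experiment. Medians of the 47 lists moved by more than the SD between experiments in 19 lists without experiment 1, 14 without experiment 2, 17 under quantile normalization, 17 under scaling to one median absolute deviation, 13 with Cy3 alone, 14 with Cy5 alone and 10 with genes of disagreeing probes left out. The experiment number was tried as a replicate block, which called 6529 genes (3516 rose, 3013 fell). No label says that the number marks a shared batch, and there are only 2 pairs. Deviations from the group means correlated at 0.291 between CHX and R1881, 0.564 between CHX and both, and 0.165 between R1881 and both. The block ended no call of a named gene and added that of MTF1. The arrays give no signal over background, so no limit of detection is known.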

Other observations

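Some gene families that belong to no list of the report stood out among the largest changes, and their members were looked up after those values were seen, so their counts support nothing further. Of 18 measured genes of tubulins and of stathmins, which bind free tubulin, 10 fell and 2 rose, with a median log2 ratio of −0.44. Of all genes 17.5% fell and 20.6% rose. TUBA1B, an alpha tubulin, had −2.96, −2.75, −2.97 and −2.95 (7.49-fold lower, limma adjusted p = 0.000189), TUBA1A had −2.83, −3.33, −2.18 and −2.39, and STMN1 had −2.79, −2.94, −2.87 and −2.96. TUBA4A was at −1.99 ± 0.15 and TUBB3 at −1.15 ± 0.30. STMN4 rose, with 2.05, 1.78, 1.09 and 1.13 (2.85-fold). Alpha tubulin genes are close copies, so probes may share signal.

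Genes of iron uptake and storage fell in 7 of 10 measured cases, against 17.5% of all genes, and the other 3 were not called. TFRC, the transferrin receptor, had −2.93, −2.73, −2.88 and −2.82 (7.15-fold lower, adjusted p = 6.40e-05). The ferritin chains, whose messengers respond to iron in the direction opposite to that of TFRC, had −1.71, −1.84, −1.41 and −1.30 for FTL and −0.97, −0.66, −0.45 and −0.78 for FTH1, and both fell.

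GBP1, an interferon-inducible GTPase, had 3.93, 3.47, 2.60 and 2.34 (8.48-fold, adjusted p = 0.000723), while GBP2 of the same family was not called and differed between the experiments (1.01 in experiment 1 and −0.01 in experiment 2). The difference between these 2 genes was not tested. Of 33 interferon-stimulated genes 4 rose (12.1%, against 20.6% of all genes) and 8 fell (24.2%, against 17.5%), but 3 fell under quantile normalization and 5 without experiment 1, with IRF7 at 1.04 ± 0.06 and MX1 at −0.72 ± 0.08.

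Of the 10022 probes without a gene name 1085 rose and 1040 fell, which is 21.2% of them against 36.0% of the named probes, and their values ran from −3.47 to 3.99. For 52 of the 337 genes that had 2 or more called probes, the probes were called in opposite directions.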
